A study of Mus musculus with 11 samples.

Results

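Hepatocytes in which *Xbp1* was deleted (*Xbp1* LKO) were compared with control hepatocytes (*Xbp1* fl/fl), from mice on chow or on an HFS (high fat sugar) diet, for 39 genes whose products carry proteins between the ER and the Golgi. The genes were listed by name and role, with earlier results of these data known: the COPII and COPI coats with the GTPases and scaffolds that recruit them, the p24 proteins, cargo receptors, KDEL receptors, a Golgi tether and the SNAREs of ER to Golgi fusion. They are 39 of the 54232 genes in the count files, and 38 of them were among the 13303 genes with enough counts to be tested. The exception was *Kdelr3*, one of the KDEL receptor genes, which had at most 3 counts in any library.

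All mice were adult males on a C57BL/6 background. *Xbp1* LKO mice lack *Xbp1* in hepatocytes through Cre recombinase driven by the albumin promoter, and the *Xbp1* fl/fl controls carry the floxed allele and have no deletion. The study found the deletion in isolated hepatocytes and normal *Xbp1* expression in hepatic stellate cells. The HFS diet was a Western diet with fructose and glucose in the drinking water, and both diets were given for up to 6 weeks. The groups, called here by diet and genotype, were chow fl/fl (n = 3 libraries), chow LKO (n = 2), HFS fl/fl (n = 3) and HFS LKO (n = 3). The study describes a further chow LKO library, which was not analysed here. Each chow library came from 1 mouse, whereas each HFS library pooled 2 mice.

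Proteins made at the ER leave it in COPII vesicles. The GTPase SAR1, switched on by PREB, recruits an inner coat of SEC23 and SEC24, where SEC24 binds cargo, and an outer cage of SEC13 and SEC31. COPI vesicles, coated by the coatomer complex, return escaped ER proteins and receptors from the Golgi. Hepatocytes secrete most plasma proteins by this route, and spliced XBP1 is a transcription factor of the unfolded protein response that is known to activate genes of the ER and of ER to Golgi transport.

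Total counts ranged from 19191032 to 23888401 per library. Expression is given as CPM, counts per 1000000 counts of a library after TMM scaling, which sets the libraries to a common level of the bulk of genes. *Xbp1* had 194, 200.3 and 221 CPM in chow fl/fl libraries and 95.7 and 128 CPM in chow LKO libraries, and 301, 295 and 242 CPM against 117, 97.3 and 135 CPM on the HFS diet. The genotypes did not overlap (log2 fold change -0.87, SE 0.18, edgeR adjusted p = 0.0183 on chow, log2 fold change -1.26, SE 0.16, edgeR adjusted p = 0.00253 on the HFS diet), while a count over the whole gene includes exons that are not deleted. The *Alb* transcript, for albumin, took 8.06% to 10.9% of counts in chow fl/fl libraries, 3.72% and 1.67% in chow LKO libraries, 5.88% to 7.42% in HFS fl/fl libraries and 3.33% to 5.40% in HFS LKO libraries. The second chow LKO library stood apart, with the lowest *Alb* share and 43.0 CPM of the stress gene *Atf3*, against 6.53 CPM in the first and at most 1.21 CPM in any fl/fl library. All 10 hepatocyte markers were counted in every library, with sums of 128100 to 164200 CPM in chow fl/fl, 34750 to 69940 CPM in chow LKO, 108200 to 131800 CPM in HFS fl/fl and 53820 to 82690 CPM in HFS LKO libraries, and 3 of 10 fell in LKO hepatocytes on chow and 2 of 10 on the HFS diet. Markers of sinusoidal endothelial cells summed to 45.7 to 108 CPM in chow fl/fl, 27.1 to 35.8 CPM in chow LKO, 88.1 to 149.8 CPM in HFS fl/fl and 71.9 to 112 CPM in HFS LKO libraries, with 0 of 10 past the threshold and 10 of 10 lower in LKO on either diet. Macrophage markers summed to 16.8 to 73.7, 18.6 to 28.97, 34.3 to 47.3 and 47.9 to 81.3 CPM in the same order of groups, with 0 of 10 past the threshold. Of these macrophage markers, 10 of 10 were lower in LKO on chow and 1 of 10 on the HFS diet. Stellate cell markers summed to 22.0 to 54.4, 11.5 to 12.4, 21.9 to 36.1 and 29.02 to 58.9 CPM, with 0 of 8 tested past the threshold and *Acta2* at 0 in both fl/fl groups. Of the stellate markers tested, 8 of 8 were lower in LKO on chow and 2 of 8 on the HFS diet. Cholangiocyte markers summed to 22.3 to 42.2 CPM over all libraries, with *Cftr* at 0 in both fl/fl groups and *Krt7* at 0 in the HFS-fed one, and 2 of 6 tested fell on chow and 1 fell and 1 rose on the HFS diet. Immediate early genes summed to 426 to 794 CPM over all libraries, and 1 of 10 rose on either diet. In bulk libraries such as these, fewer cells of a type and less RNA per cell cannot be told apart, and the part of these differences in the results that follow was not tested.

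The promoters of the genes were searched for the elements through which XBP1 and ATF6 are known to act. RefSeq windows from 250 bases before to 50 bases after the transcription start on GRCm38.p6 were found for 33 of the 39 genes, and both strands were searched. Neither the ERSE (CCAAT, any 9 bases, CCACG) nor the ERSE-II (ATTGG, any base, CCACG) occurred in a window of the 33 genes. These elements are rare, with 0.137% and 0.0444% of the 27025 genes that have a window. The 8-base UPRE core TGACGTGG was found in 6 of 33 genes, or 18.2%, against 0.714% of all genes with a window and 1.01% of the 9934 tested ones. Its inner hexamer ACGTGG, which overlaps every UPRE core match, was found in 17 of 33 genes, or 51.5%, against 9.40% of all genes and 13.3% of tested ones. Restricted to the 250 bases before the start, 3 genes kept the core (9.09%, against 0.866% of tested genes) and 11 the hexamer (33.3%, against 11%). The windows of 30 bases around the core are shown because they are the only such matches among the 33 genes, in the direction of the gene, with the core or its reverse complement in capitals.
Sec24d: gcccgggcgccTGACGTGGcactagcaacc
Sec23a: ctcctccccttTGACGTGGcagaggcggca
Copb1: cccgcccccttCCACGTCAgccaaggactt
Copb2: tcccggaagttCCACGTCAgtgggttggcc
Kdelr3: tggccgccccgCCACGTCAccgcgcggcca
Stx5a: tggcgcagcagCCACGTCAccgagttagga
Stx5a second match: agttaggagtacgtctaggTGACGTGGcgg
The *Sec24d* window lies at chr3:123267459-123267488 on the plus strand, with the core 26 bases before the start. Those of *Copb1* (chr7:114254690-114254719, minus strand) and *Kdelr3* (chr15:79516367-79516396, plus strand) put it 28 and 30 bases before the start, and that of *Copb2* (chr9:98563713-98563742, plus strand) 7 bases before it, so that the match reaches past the start. The matches of *Sec23a* (chr12:59011993-59012022, minus strand) and *Stx5a* (chr19:8741422-8741451 and chr19:8741444-8741473, plus strand) lie after the start. Of these 6 genes, only *Sec24d* passed the threshold in a genotype comparison. The hexamer was found in 4 of 10 genes with a window that passed in a genotype comparison and in 12 of 22 tested genes that did not. Besides *Sec24d*, the 4 were *Tmed3*, *Tmed10* and *Copz1*, shown with the hexamer or its reverse complement in capitals.
Tmed3 upstream: atttctccggagACGTGGcagacactaagt
Tmed3 downstream: gctgagctcgcgCCACGTctcttcaggggg
Tmed10: cagaggcgcgtcACGTGGgtgctcccggtt
Copz1: gcttgtgcgactCCACGTcggcagcagcta
The upstream *Tmed3* match (chr9:89705227-89705256, minus strand) lies 201 bases before the start, and the other (chr9:89704996-89705025) after it. The *Tmed10* window is at chr12:85374710-85374739 on the minus strand, with the hexamer 10 bases before the start, and the *Copz1* window at chr15:103272886-103272915 on the plus strand, with the match after the start. *Sec23b*, which passed in both genotype comparisons, held neither the core nor the hexamer in its windows. The 250 bases before its first start, chr2:144555979-144556228 on the plus strand, are shown as the promoter without a match.
Sec23b: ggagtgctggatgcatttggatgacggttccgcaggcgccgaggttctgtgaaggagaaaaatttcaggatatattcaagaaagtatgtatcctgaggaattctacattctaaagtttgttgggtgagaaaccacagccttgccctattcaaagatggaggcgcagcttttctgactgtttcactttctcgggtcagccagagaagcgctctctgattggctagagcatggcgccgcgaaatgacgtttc
A match of these letters is a description of the window and was not tested as a binding site.

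In chow LKO hepatocytes genes of both coats, p24 proteins, a cargo receptor and a SNARE were lower than in chow fl/fl hepatocytes. Of 38 genes tested, 11 fell and 0 rose (edgeR's quasi-likelihood test over all 11 libraries, Benjamini-Hochberg adjustment over all genes tested, threshold 0.05), or 28.9%, while 4.75% of all genes tested passed in either direction and 3.02% fell. The 11 were *Sec23b*, *Sec24d*, *Preb*, *Tmed2*, *Tmed3*, *Tmed10*, *Surf4*, *Copz1*, *Cope*, *Arcn1* and *Bet1*. DESeq2 called 17 (8.49% of all genes). The log2 fold change was negative for 37 of 38 genes (21 with library totals in place of TMM), against 49.7% of all genes tested, and its median was -0.36, against 0.00 over all genes. For 26 of the 38 genes both LKO libraries were below all 3 fl/fl libraries, which held for 15.9% of all genes tested. With library totals 7 were lower and 3 higher without overlap (5.83% of all genes lower). No share of all genes higher without overlap is given beside the 3. With library totals 2685 of the 13303 genes tested passed as higher in edgeR.

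On the HFS diet the same direction was seen with fewer calls. Of the 38 genes, 5 fell and 0 rose in LKO hepatocytes (13.2%), while 4.08% of all genes passed in either direction and 2.16% fell. They were *Sec23b*, *Preb*, *Lman2*, *Cope* and *Golgb1*, so that *Sec23b*, *Preb* and *Cope* passed on either diet (3 of 38, or 7.89%, against 2.07% of all genes). DESeq2 called 16 (7.57% of all genes). The log2 fold change was negative for 34 of 38 genes (22 with library totals), against 48.6% of all genes, with a median of -0.31, against 0.01. The groups did not overlap, with LKO lower, for 28 of the 38 genes and 12.5% of all genes tested, whereas with library totals 9 were lower and 4 higher (4.17% of all genes lower). The 4 again have no share of all genes beside them, and 1288 of all genes tested passed as higher in edgeR with library totals. For 21 of 38 genes every LKO library of either diet was below every fl/fl library of either diet, against 4.34% of all genes, and with library totals this held for 1 of 38, *Sec23b*, against 1.62%. The 2 genotype comparisons share no library, but both come from 1 model with a common TMM scaling and a shared estimate of the spread. The map of each gene by library shows this pattern.

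**Figure D1:**
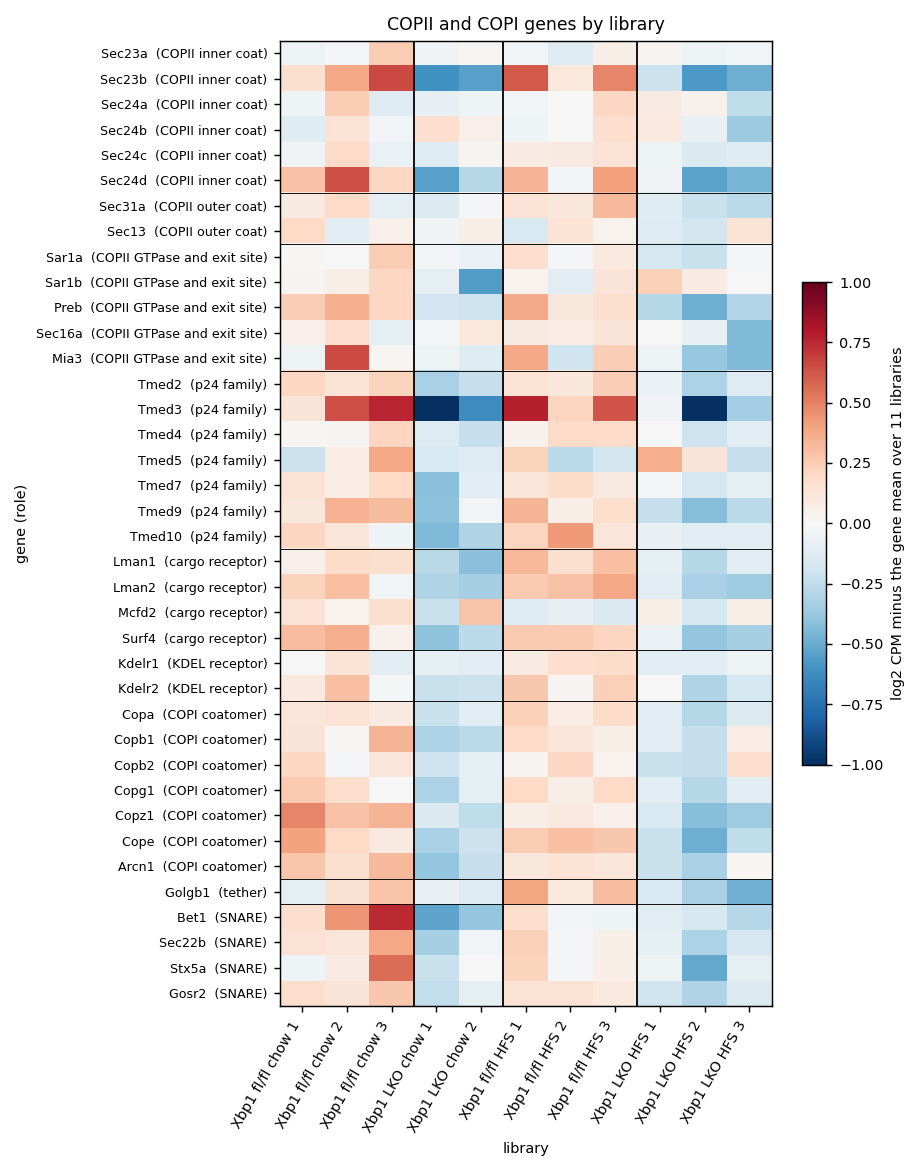
Each row is 1 of the 38 tested genes, grouped by role, and each column 1 of the 11 libraries; colour gives log2 CPM after TMM scaling minus the gene's mean over the 11 libraries, from -1 (blue) to 1 (red), with values past -1 drawn in the last blue. Rows of *Sec23b*, *Sec24d*, *Tmed3* and *Preb* are blue in most LKO columns and red in most fl/fl columns. *Sec24d* and *Tmed3* are close to their means in the first HFS LKO library. In all, 37 of 38 genes on chow and 34 of 38 on HFS have a negative log2 fold change, which library totals in place of TMM reduce to 21 and 22.

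The direction depends on how libraries are put on a common scale. With library totals alone the median of all genes moved to 0.33 on chow and 0.27 on the HFS diet. The part of the *Alb* share in this move was not tested. All genes that passed on chow split with library totals into 2685 higher and 315 lower, against 230 higher and 402 lower with TMM. The median of the 38 genes was then -0.03 on chow and -0.05 on the HFS diet, and 21 and 22 of them kept a negative log2 fold change. The distance to the median of all genes was -0.36 with either scaling on chow and -0.32 with either on the HFS diet. With library totals 36 and 34 of 38 genes were below that median, against 37 and 34 with TMM. A change of scaling moves all genes by nearly the same amount, so that neither the distance nor these counts could change much. Calls dropped to 4 on chow with library totals, of which *Sec23b*, *Tmed3* and *Bet1* fell and *Sec24b*, a Sec24 paralog, rose. Of all 13303 genes tested 2685 rose and 315 fell there. On the HFS diet 1 of the 38 genes passed, *Sec23b*, which fell, while 1288 of all genes tested rose and 195 fell. As a share of all counts the 39 genes took 0.477% to 0.480% in chow fl/fl, 0.442% and 0.508% in chow LKO, 0.458% to 0.501% in HFS fl/fl and 0.448% to 0.473% in HFS LKO libraries. With *Alb* counted, the second chow LKO library had the highest share of all libraries. With *Alb* left out of the total the shares were 0.522% to 0.536%, 0.459% and 0.517%, 0.487% to 0.537% and 0.464% to 0.500%. Both chow LKO libraries were then below all chow fl/fl libraries, the second by little, and the HFS groups overlapped. All fold changes that follow are on the TMM scale, relative to the bulk of genes. The calls also hang on single libraries. On chow 3, 3 and 8 of 38 genes passed without fl/fl replicates 1, 2 and 3. Without the first HFS fl/fl or the second HFS LKO library 0 of 38 passed on the HFS diet. The number of all genes passing in these fits is not given here, so these counts have no background. Without the first or second chow LKO library 1 library was left in that group, and 34 and 37 of 38 log2 fold changes were negative. In every setting tried apart from library totals 34 to 37 genes on chow and 33 to 35 genes on the HFS diet had a negative log2 fold change.

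**Figure D2:**
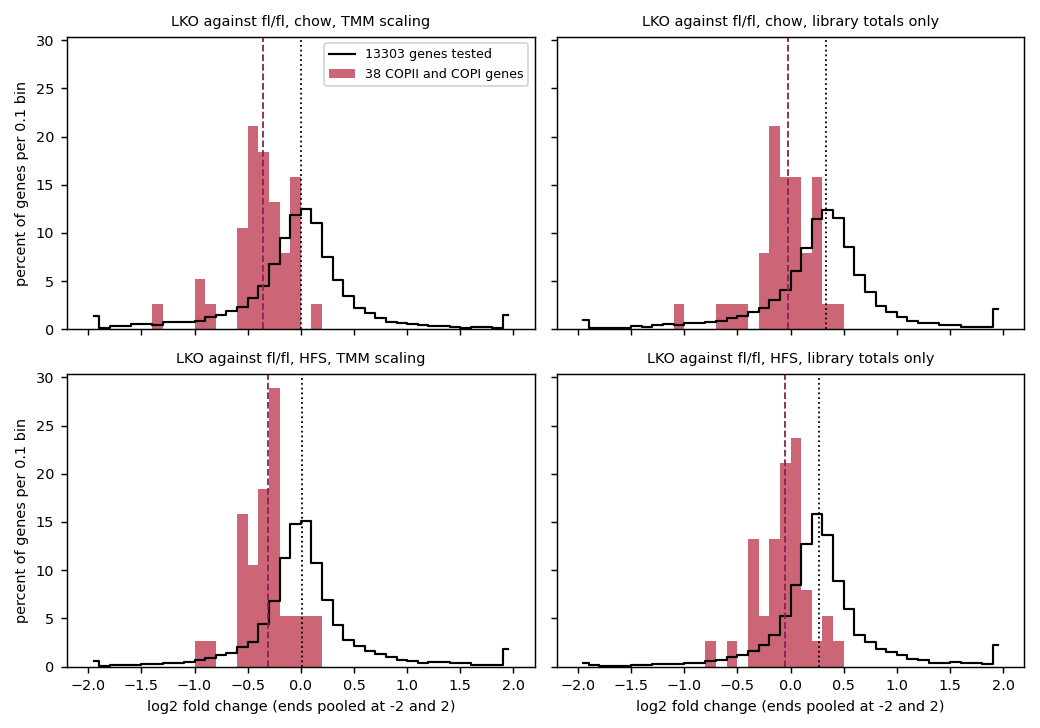
Bars give the percent of the 38 COPII and COPI genes, and the black line the percent of the 13303 genes tested, in each bin of log2 fold change (LKO against fl/fl); the top row is chow, the bottom row HFS, the left column TMM scaling and the right column library totals. The dashed median of the 38 genes sits left of the dotted median of all genes in every panel, by 0.36 on chow and 0.32 on HFS, but at -0.36 and -0.31 with TMM and at -0.03 and -0.05 with library totals. Scaling moves all genes by nearly the same amount, so this distance could hardly differ between the columns.

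Of the 6 inner coat genes, *Sec23b* fell on either diet and *Sec24d* on chow, and the other 4 did not pass. *Sec23b* (chr2:144556229-144590749, plus strand, GRCm38) had 52.0, 60.7 and 73.3 CPM in chow fl/fl libraries and 30.55 and 31.85 CPM in chow LKO libraries. In HFS libraries the values were 70.9, 49.8 and 65.2 CPM in fl/fl and 40.0, 31.2 and 33.1 CPM in LKO libraries. All 5 LKO libraries were below all 6 fl/fl libraries. *Sec23b*, which encodes the SEC23 paralog mutated in congenital dyserythropoietic anaemia type II, was 49.7% lower on chow (95% interval 33.5% to 61.9%; log2 fold change -0.99, SE 0.18, edgeR adjusted p = 0.0124) and 43.9% lower on the HFS diet (95% interval 28.5% to 56.0%; log2 fold change -0.83, SE 0.16, edgeR adjusted p = 0.0151). It passed in 11 of 13 alternatives on chow and 10 of 14 on the HFS diet. The other SEC23 gene, *Sec23a*, had 124, 126 and 153 against 125 and 129 CPM on chow and 126, 117 and 133.5 against 130.5, 124 and 126 CPM on the HFS diet. Its groups overlapped on either diet, and the 95% interval of its log2 fold change was -0.34 to 0.18 on chow and -0.22 to 0.25 on the HFS diet. The count of *Sec23b* divided by that of *Sec23a* in the same library does not depend on the scaling. It was 0.419, 0.480 and 0.480 in chow fl/fl, 0.244 and 0.247 in chow LKO, 0.564, 0.425 and 0.489 in HFS fl/fl and 0.307, 0.252 and 0.264 in HFS LKO libraries. Every LKO library had the lower ratio, which is given as a description because the pair was chosen after the values were seen. Ratios were also taken for *Sec24d*, given below, for *Kdelr2* to *Kdelr1* and for *Sar1b* to *Sar1a*. The last 2 ratios were lower in LKO on chow, while their HFS groups overlapped. On the HFS diet their means were 0.807 in fl/fl and 0.749 in LKO, and 1.92 in fl/fl and 2.40 in LKO libraries.

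Among the Sec24 genes, whose products select cargo, *Sec24d* had 146, 186 and 137 CPM in chow fl/fl and 81.8 and 97.5 CPM in chow LKO libraries. With HFS feeding the values were 151, 116.5 and 158 CPM against 116, 82.1 and 86.3 CPM. The chow groups were well apart, while on the HFS diet the highest LKO library nearly met the lowest fl/fl library. *Sec24d* fell by 42.7% on chow (log2 fold change -0.80, SE 0.20, edgeR adjusted p = 0.0433) and did not pass on the HFS diet (log2 fold change -0.58, SE 0.17, edgeR adjusted p = 0.0948), and the difference between the diets did not pass either (0.22, SE 0.26, edgeR adjusted p = 0.923). *Sec24a*, *Sec24b* and *Sec24c* had log2 fold changes of -0.10, 0.11 and -0.08 on chow and -0.10, -0.15 and -0.21 on the HFS diet, and none of the 3 passed with TMM scaling. Their CPM lay between 134 and 189.7 for *Sec24a*, 20.2 and 29.3 for *Sec24b* and 127 and 160.5 for *Sec24c* over the 11 libraries. On the HFS diet the *Sec24c* groups did not overlap, with 149, 150 and 155 CPM in fl/fl and 136, 127 and 129.5 CPM in LKO libraries (edgeR adjusted p = 0.319). Those of *Sec24a* and *Sec24b* overlapped. The ratio of *Sec24d* to *Sec24a* counts was 0.943, 0.980 and 0.942 in chow fl/fl and 0.544 and 0.630 in chow LKO libraries. On the HFS diet it was 0.966, 0.733 and 0.855 against 0.686, 0.498 and 0.644. That ratio was lower in every LKO library on either diet, again as a description. Against *Sec24c* the ratio was 1.06, 1.16 and 1.02 in chow fl/fl and 0.635 and 0.680 in chow LKO libraries, and on the HFS diet 1.01, 0.776 and 1.02 against 0.856, 0.645 and 0.666, where the groups overlapped. Of the genes past the threshold, *Sec24d* is the one whose promoter window, shown above, holds the UPRE core. Over the 6 inner coat genes the median log2 fold change was -0.09 on chow and -0.18 on the HFS diet, and with library totals it turned to 0.24 and 0.08.

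**Figure D3:**
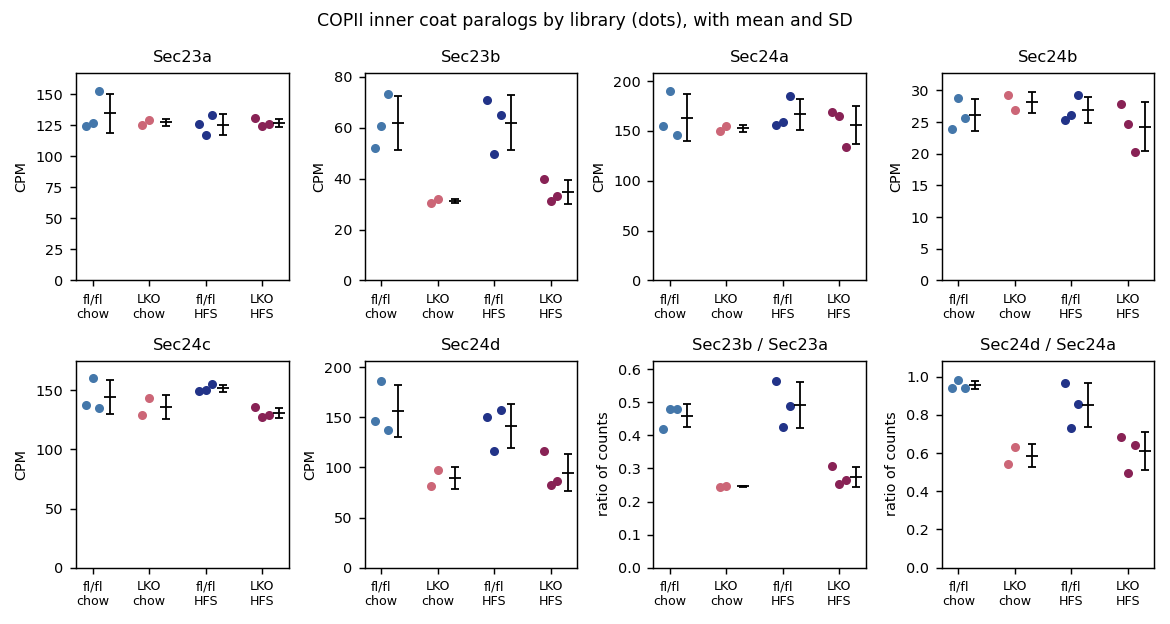
Dots are libraries, black marks the mean with 1 SD of each group (n = 3, and n = 2 for chow LKO); 6 panels show CPM after TMM scaling of the SEC23 and SEC24 genes and the last 2 the ratio of counts within a library. *Sec23b* and *Sec24d* sit lower in the LKO groups, at 31.2 against 62.0 and 89.7 against 156 CPM on chow, while *Sec23a*, *Sec24a*, *Sec24b* and *Sec24c* overlap on chow. On HFS *Sec24c* is lower in LKO without overlap. With library totals *Sec24b* is higher on chow.

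The outer coat genes did not pass in a genotype comparison. *Sec31a* ranged from 156.7 to 236 CPM and had a log2 fold change of -0.14 on chow (edgeR adjusted p = 0.615) and -0.40 on the HFS diet (edgeR adjusted p = 0.077), where its groups did not overlap. *Sec13*, whose product also belongs to the nuclear pore, had values of -0.04 and -0.06, with 95% intervals of -0.34 to 0.26 and -0.33 to 0.21. With library totals both genes turned to positive values on chow, and *Sec13* on the HFS diet.

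Of the genes that start the coat, *Preb* fell on either diet. *Preb* (chr5:30950853-30960361, minus strand) encodes SEC12, the ER membrane exchange factor that loads SAR1 with GTP. It had 112, 120.2 and 109 CPM in chow fl/fl and 82.4 and 81.5 CPM in chow LKO libraries. HFS-fed libraries had 122, 102 and 105 CPM in fl/fl and 77.3, 67.1 and 77.0 CPM in LKO. The LKO libraries were clear of the fl/fl libraries, with little spread within a genotype. The difference was 27.9% on chow (95% interval 13.7% to 39.85%; log2 fold change -0.47, SE 0.12, edgeR adjusted p = 0.045) and 32.8% on the HFS diet (95% interval 21.1% to 42.75%; log2 fold change -0.57, SE 0.11, edgeR adjusted p = 0.0128), and it passed in 3 of 13 alternatives on chow and 11 of 14 on the HFS diet. Neither SAR1 gene passed. *Sar1a* had log2 fold changes of -0.14 on chow and -0.22 on the HFS diet. Its LKO libraries, at most 96.65 CPM, were narrowly below all fl/fl libraries, at least 96.97 CPM. *Sar1b*, the form linked to chylomicron retention disease, had log2 fold changes of -0.40 and 0.09. *Sar1b* had 185 and 133 CPM in the chow LKO libraries, the second below and the first close to the fl/fl range of 200.2, 206 and 227 CPM, and its adjusted p was 0.175 in edgeR. *Sec16a*, a scaffold of ER exit sites, had values of -0.0033 and -0.25, and *Mia3*, or TANGO1, which loads bulky cargo such as collagen, -0.33 and -0.45. None of these 4 genes passed. *Sar1b* and *Sec24a* start next to each other on opposite strands of chromosome 11.

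The p24 proteins, small transmembrane cargo adaptors that cycle in both coats, had the largest fold change. *Tmed3* had 15.9, 22.8 and 24.65 CPM in chow fl/fl and 6.83 and 9.44 CPM in chow LKO libraries. HFS-fed mice had 24.9, 16.9 and 22.5 CPM against 14.2, 7.07 and 11.5 CPM. No LKO library reached the lowest fl/fl library, although both HFS groups were widely spread. *Tmed3* fell by 61.5% on chow (95% interval 39.3% to 75.55%; log2 fold change -1.38, SE 0.30, edgeR adjusted p = 0.0251) and was just outside the threshold on the HFS diet (log2 fold change -0.98, SE 0.26, edgeR adjusted p = 0.0567). *Tmed2* had 24.3, 23.2 and 24.6 against 16.9 and 18.0 CPM on chow and 23.4, 22.8 and 25.0 against 20.1, 17.0 and 19.3 CPM on the HFS diet. The groups were apart on either diet, with little spread within each, and *Tmed2* passed on chow (log2 fold change -0.46, SE 0.11, edgeR adjusted p = 0.034) and not on the HFS diet (log2 fold change -0.34, SE 0.10, edgeR adjusted p = 0.0764). A processed pseudogene, *Gm10698*, is identical to *Tmed2* over 604 bases and was counted at 1.44 CPM on average, so reads may be divided between them. *Tmed10* had 54.1, 50.5 and 45.1 against 34.2 and 37.75 CPM on chow and 54.0, 62.5 and 50.55 against 44.3, 42.95 and 42.9 CPM on the HFS diet. Its LKO libraries were below all fl/fl libraries, and it passed on chow (log2 fold change -0.47, SE 0.12, edgeR adjusted p = 0.0481) and not on the HFS diet (log2 fold change -0.36, SE 0.11, edgeR adjusted p = 0.0862). *Tmed9* had 79.2, 93.2 and 91.4 against 55.2 and 71.9 CPM on chow and 92.6, 76.5 and 82.7 against 62.4, 54.7 and 60.9 CPM on the HFS diet. It was lower in every LKO library, with log2 fold changes of -0.47 (SE 0.14, edgeR adjusted p = 0.0892) and -0.50 (SE 0.13, edgeR adjusted p = 0.05), and did not pass on either. *Tmed4*, *Tmed5* and *Tmed7* did not pass, with -0.27, -0.25 and -0.40 on chow and -0.24, 0.17 and -0.22 on the HFS diet. In all, 3 of 7 p24 genes fell on chow (3.02% of all genes) and 0 of 7 on the HFS diet (2.16% of all genes). Their median log2 fold change was -0.46 and -0.34, or -0.13 and -0.08 with library totals, where *Tmed4* and *Tmed5* on chow and *Tmed4*, *Tmed5* and *Tmed7* on the HFS diet were positive.

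Among cargo receptors, *Surf4* and *Lman2* each fell on 1 diet. *Surf4*, a receptor for secreted proteins that include apolipoprotein B, had 327, 341 and 272 CPM in chow fl/fl and 200.2 and 221 CPM in chow LKO libraries. In HFS libraries the values were 318, 317 and 306 CPM against 252, 203 and 210.4 CPM. The groups did not overlap on either diet, and the difference was 32.8% on chow (log2 fold change -0.57, SE 0.14, edgeR adjusted p = 0.0449) and 29.3% on the HFS diet (log2 fold change -0.50, SE 0.13, edgeR adjusted p = 0.0519), the latter outside the threshold. *Lman2*, or VIP36, a lectin of high-mannose glycoproteins, had 339.5, 358 and 284.5 against 236 and 231 CPM on chow and 348, 356 and 379.7 against 268, 231.5 and 227 CPM on the HFS diet. It too was lower in every LKO library, by 28.7% on chow, where it did not pass (log2 fold change -0.49, SE 0.14, edgeR adjusted p = 0.0704), and by 33.0% on the HFS diet, where it did (log2 fold change -0.58, SE 0.12, edgeR adjusted p = 0.025). *Lman1* and *Mcfd2* encode the subunits of the receptor that exports coagulation factors V and VIII. *Lman1* had 303, 331 and 326 against 241.5 and 218 CPM on chow and 367, 326 and 360.5 against 275, 240.1 and 269 CPM on the HFS diet. No library of LKO mice reached those of fl/fl mice, and the test was just outside the threshold on either diet (log2 fold change -0.48, SE 0.13, edgeR adjusted p = 0.0539 on chow, log2 fold change -0.43, SE 0.11, edgeR adjusted p = 0.0554 on the HFS diet). *Mcfd2* had 254, 235.5 and 257 against 197 and 280.4 CPM and 211, 217 and 208 against 239, 204 and 239.8 CPM, overlapping on either diet, with 95% intervals of -0.39 to 0.27 and -0.20 to 0.40 for the log2 fold change. With library totals *Mcfd2* alone of the 4 receptors was positive, on either diet.

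The KDEL receptors, which return ER chaperones from the Golgi, did not pass. *Kdelr1* had log2 fold changes of -0.11 on chow and -0.23 on the HFS diet, and *Kdelr2* -0.36 and -0.34, with adjusted p from edgeR of 0.638, 0.231, 0.166 and 0.15 in that order. *Kdelr2* was lower in both chow LKO libraries, at 73.85 and 74.3 CPM, than in chow fl/fl libraries, at 92.6, 107 and 85.2 CPM. *Kdelr3* had 0 to 3 counts per library, so that it was close to the limit of detection at this depth.

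All 7 coatomer genes had negative log2 fold changes on either diet, apart from *Copa* and *Copb2* on chow and *Copb1* and *Copb2* on the HFS diet with library totals. In the test 3 of 7 fell on chow (3.02% of all genes) and 1 of 7 on the HFS diet (2.16% of all genes). *Copz1*, the zeta subunit, had 225, 197 and 203 CPM in chow fl/fl and 145 and 134 CPM in chow LKO libraries. With HFS feeding the values were 167, 171 and 166 CPM against 144, 119 and 126 CPM. Besides the gap between the genotypes on either diet, HFS fl/fl libraries were all below chow-fed ones. *Copz1* fell by 33.0% on chow (log2 fold change -0.58, SE 0.12, edgeR adjusted p = 0.0225), with 22.9% on the HFS diet outside the threshold (log2 fold change -0.37, SE 0.11, edgeR adjusted p = 0.0794). *Cope* (chr8:70302518-70312993, plus strand), the epsilon subunit, had 139, 120.3 and 111 against 83.6 and 90.6 CPM on chow and 125, 129 and 127 against 90.0, 74.8 and 87.8 CPM on the HFS diet. *Cope* fell on either diet, by 29.5% on chow (log2 fold change -0.50, SE 0.13, edgeR adjusted p = 0.0457) and 33.6% on the HFS diet (log2 fold change -0.59, SE 0.11, edgeR adjusted p = 0.0147), and its LKO libraries were clear of all fl/fl libraries. It passed in 4 of 13 alternatives on chow and 9 of 14 on the HFS diet. *Arcn1*, the delta subunit, had 179.8, 166 and 186 against 114 and 126 CPM on chow and 161, 163.5 and 161 against 127, 118 and 150 CPM on the HFS diet. The HFS fl/fl libraries lay close together and the LKO libraries below them were spread, and *Arcn1* passed on chow (log2 fold change -0.56, SE 0.13, edgeR adjusted p = 0.0301) and not on the HFS diet (log2 fold change -0.30, SE 0.11, edgeR adjusted p = 0.189). *Copb1*, the beta subunit, had 139.7, 128 and 162 against 103 and 106 CPM on chow and 145, 139 and 133 against 119, 108 and 134 CPM on the HFS diet. It was lower on chow without passing (log2 fold change -0.46, SE 0.13, edgeR adjusted p = 0.077), and its HFS groups overlapped (log2 fold change -0.21, SE 0.12, edgeR adjusted p = 0.408). *Copa*, *Copb2* and *Copg1*, the alpha, beta prime and gamma subunits, had values of -0.28, -0.26 and -0.35 on chow and -0.34, -0.18 and -0.32 on the HFS diet and did not pass. The median of the coatomer genes was -0.46 on chow and -0.32 on the HFS diet, or -0.13 and -0.06 with library totals.

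**Figure D4:**
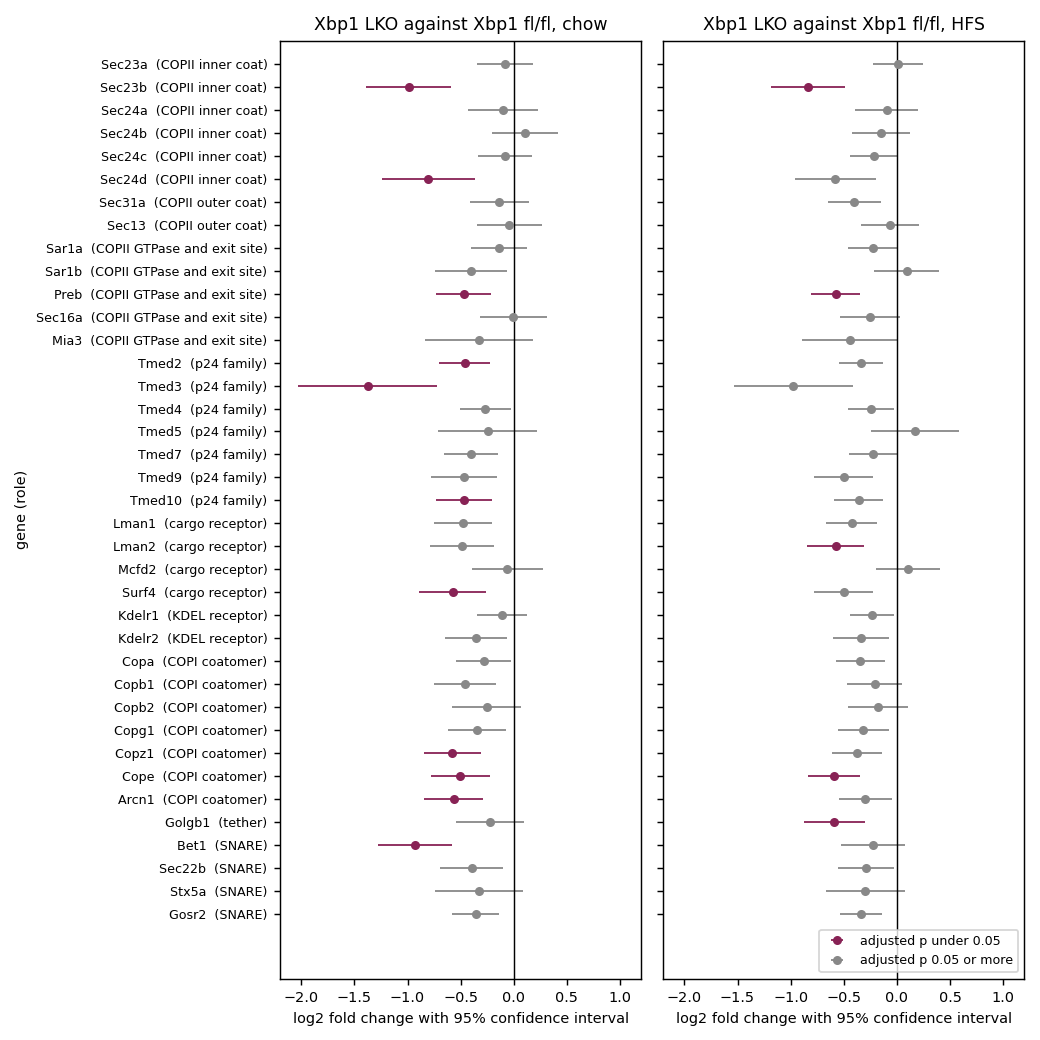
Points give the log2 fold change of LKO against fl/fl hepatocytes (TMM scaling) for each of the 38 tested genes on chow (left) and HFS (right), bars its 95% confidence interval, and dark red marks an edgeR adjusted p under 0.05. There are 11 dark red points on chow and 5 on HFS, all left of 0. With library totals *Sec24b* passes right of 0 on chow, as do 2685 of the 13303 genes tested, and 17 and 16 points lie right of 0.

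*Golgb1*, or giantin, a coiled-coil tether of the Golgi, had 104, 124 and 136 CPM in chow fl/fl and 105.5 and 102 CPM in chow LKO libraries. HFS-fed mice had 146, 120 and 138 CPM against 100.1, 89.0 and 79.6 CPM. The chow groups overlapped (log2 fold change -0.23, SE 0.15, edgeR adjusted p = 0.439), whereas the HFS groups did not, and *Golgb1* fell by 33.5% there (log2 fold change -0.59, SE 0.13, edgeR adjusted p = 0.0301). The difference between the diets did not pass (-0.36, SE 0.19, edgeR adjusted p = 0.829).

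Of the SNAREs that fuse ER vesicles with the Golgi, *Bet1* had 51.6, 62.2 and 77.0 CPM in chow fl/fl and 31.8 and 35.0 CPM in chow LKO libraries. In HFS libraries the values were 51.8, 45.1 and 44.4 CPM against 42.65, 41.0 and 37.6 CPM. The LKO libraries of both diets were below all others, and the HFS fl/fl and chow fl/fl libraries overlapped. *Bet1* fell by 47.5% on chow (95% interval 33.3% to 58.7%; log2 fold change -0.93, SE 0.16, edgeR adjusted p = 0.00867), the smallest p of the 38 genes, and did not pass on the HFS diet (log2 fold change -0.22, SE 0.14, edgeR adjusted p = 0.465), where it was positive with library totals. The difference between the diets was 0.71 on the log2 scale (SE 0.21, 95% interval 0.25 to 1.16), with an adjusted p of 0.659 in edgeR. *Sec22b*, *Stx5a* and *Gosr2*, the partners of *Bet1* in the SNARE complex, had values of -0.40, -0.33 and -0.36 on chow and -0.29, -0.30 and -0.34 on the HFS diet. None of the 3 passed, although the 5 LKO libraries were below the 6 fl/fl libraries for *Sec22b* and *Gosr2*. With library totals *Stx5a* turned positive on chow.

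**Figure D5:**
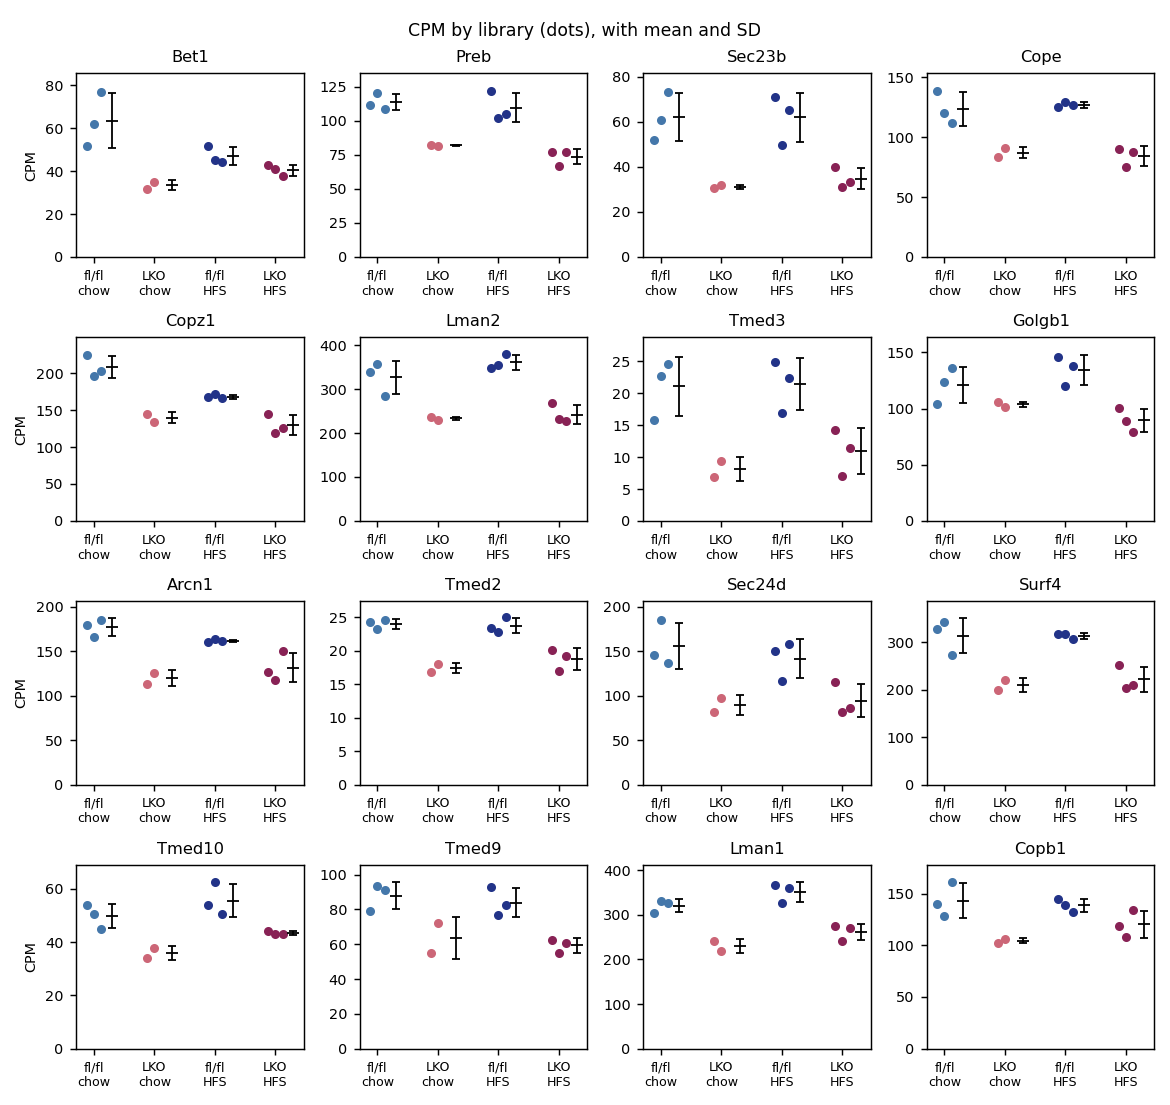
CPM after TMM scaling (axes from 0) in each library for the 13 genes past the threshold in a genotype comparison, in order of p, and for *Tmed9*, *Lman1* and *Copb1*, which had the largest fold changes among those that did not pass; black marks the mean with 1 SD (n = 3, and n = 2 for chow LKO). *Bet1* drops from a mean of 63.6 to 33.4 CPM on chow and from 47.1 to 40.4 CPM on HFS, while *Preb* and *Cope* are lower in LKO on both diets; with library totals *Bet1* and *Copb1* turn to higher on HFS.

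The diet itself moved none of these genes past the threshold. In fl/fl mice 0 of 38 genes passed for HFS against chow in edgeR (0.428% of all genes passed), 2 had an unadjusted p under 0.05 (8.95% of all genes), and DESeq2 called 0 (1.36%). The 2 were *Copz1*, at 208 ± 14.7 CPM on chow and 168 ± 2.69 CPM on the HFS diet (SD, n = 3 each; log2 fold change -0.31, SE 0.11, edgeR adjusted p = 0.393), and *Bet1*, at 63.6 ± 12.75 and 47.1 ± 4.09 CPM (log2 fold change -0.43, SE 0.14, edgeR adjusted p = 0.327). In LKO mice 0 of 38 passed in edgeR (0.0601% of all genes), 2 had an unadjusted p under 0.05 (12.7%), and DESeq2 called 0 (1.60%). Those were *Sar1b*, at 185 and 133 CPM on chow and 232, 208 and 197 CPM on the HFS diet (log2 fold change 0.41, SE 0.16, edgeR adjusted p = 0.314), and *Tmed10* (log2 fold change 0.27, SE 0.12, edgeR adjusted p = 0.378). The medians over the 38 genes were -0.01 and 0.02, against -0.01 and 0.00 over all genes. For the interaction of genotype and diet, 0 of 38 genes and 0% of all genes passed in edgeR, 2 of 38 had an unadjusted p under 0.05 (*Bet1* and *Sar1b*, against 6.13% of all genes), and DESeq2 called 0 of 38 (0.218%). The diet comparisons use the same libraries as the genotype comparisons, and diet is confounded with pooling of mice.

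Of 60 other genes of ER to Golgi transport, 55 were tested, and 6 fell and 0 rose in LKO hepatocytes on chow and 5 fell and 0 rose on the HFS diet, beside 3.02% and 2.16% of all genes that fell. Their median log2 fold change was -0.14 and -0.09, and 36 and 41 of 55 were negative. With library totals the medians turned to 0.19 and 0.17 with 12 and 15 negative. Calls were then 3 lower (*Uso1*, *Scfd1* and *Arfgap3*) and 8 higher on chow and 1 higher on the HFS diet. Of all 13303 genes tested 2685 rose and 315 fell on chow with library totals, and 1288 rose and 195 fell on the HFS diet. *Uso1*, the vesicle tether p115, had 141, 158.5 and 167 against 79.0 and 91.75 CPM on chow and 166, 134 and 158 against 104, 79.4 and 96.3 CPM on the HFS diet. It passed on either (log2 fold change -0.86, SE 0.15, edgeR adjusted p = 0.0102 on chow, log2 fold change -0.71, SE 0.13, edgeR adjusted p = 0.014 on the HFS diet), with no overlap of the genotypes. *Gorasp2*, a Golgi stacking protein, *Ergic3*, a protein of the ER to Golgi intermediate compartment, and *Yif1b* also passed on either diet, with log2 fold changes of -0.63, -0.61 and -0.51 on chow and -0.47, -0.51 and -0.62 on the HFS diet. *Scfd1*, or SLY1, which binds the SNARE syntaxin 5, had 64.3, 53.2 and 63.5 against 30.25 and 32.0 CPM on chow and passed there (log2 fold change -0.95, SE 0.15, edgeR adjusted p = 0.00557), as did *Arfgap3*, a GTPase activator for ARF1 (log2 fold change -1.18, SE 0.23, edgeR adjusted p = 0.0145). Neither passed on the HFS diet (-0.36 and -0.54, edgeR adjusted p = 0.16 and 0.162), where *Yif1a* did (log2 fold change -0.68, SE 0.16, edgeR adjusted p = 0.0355). In the diet and interaction comparisons 0 of 55 passed in edgeR and in DESeq2, and 3 had an unadjusted p under 0.05 in each, where all genes gave 8.95% (fl/fl), 12.7% (LKO) and 6.13% (interaction).

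Among transcripts for cargo of these routes, *Serpina1a* passed on chow, also with library totals. *Serpina1a*, for alpha-1 antitrypsin, had 1010, 1046 and 1084 against 624 and 459 CPM on chow and passed there (log2 fold change -0.95, SE 0.19, edgeR adjusted p = 0.0163), with -0.64 on the HFS diet (edgeR adjusted p = 0.0519). Near-identical copies of the cargo transcripts, which could divide reads, were not searched for. *F5* and *F8*, for the cargo of LMAN1 and MCFD2, had log2 fold changes of -0.04 and -0.61 on chow and -0.36 and -0.0022 on the HFS diet, and *Apob* -0.46 and -0.30, and none of the 3 passed. *F8* had only 2.93 to 10.02 CPM over the 11 libraries. Markers of sinusoidal endothelial cells were also lower in LKO on chow (median log2 fold change -1.29). Which cells the *F8* reads came from was not tested. *Col1a1*, for a collagen chain, the kind of cargo loaded with the help of TANGO1, was at most 0.744 CPM in any library.

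Levels between genes were compared as CPM per kb of merged exons in chow fl/fl libraries. *Sar1b* was highest, at 168 ± 11.2 CPM per kb (SD, n = 3), then *Surf4* at 95.5 ± 11.1 and *Mcfd2* at 88.0 ± 4.11, which overlapped each other, and *Kdelr1* at 59.1 ± 5.22 and *Copz1* at 56.9 ± 4.01, which overlapped too. Among the inner coat genes, *Sec23a* stood at 27.8 ± 3.27 and *Sec23b* at 9.83 ± 1.70 CPM per kb, and *Sec24d* at 24.7 ± 4.11, *Sec24c* at 22.9 ± 2.25, *Sec24a* at 15.3 ± 2.18 and *Sec24b* at 4.34 ± 0.409 CPM per kb. Of the 38 tested genes *Sec24b* was lowest, and the genes past the threshold ranged from 95.5 (*Surf4*) to 7.41 (*Tmed3*). Taking the longest transcript as the length raised *Sec23b* to 19.9 and *Arcn1* from 11.9 to 43.5 CPM per kb, and put *Mcfd2*, at 122, above *Surf4* and moved *Kdelr1* from rank 4 to rank 7, so the order of the list rests on the choice of length, apart from *Sar1b* as the highest and *Sec24b* as the lowest of the 38. Exons of *Surf4* overlap those of *Surf2* (13.4 CPM) on the opposite strand, and exons of *Golgb1* those of *Gm49599* (1.73 CPM) on the same strand, those of *Copa* overlap *Ncstn* (56.4 CPM) and those of *Tmed5* overlap *Mtf2* (5.63 CPM) on the opposite strand, so that the counts of these genes may hold some reads of the neighbour.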

How the data were processed

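Hepatocytes were purified on Percoll, and Trizol-extracted RNA was sequenced as 50-base single-end reads on an Illumina HiSeq. The deposited files hold raw counts per Ensembl gene, 1 file per library. The study's methods name kallisto and tximport, and the submitters' processing notes name cutadapt 1.13, STAR, HTSeq 0.6.1p1 and mm10. Which of them made the counts is not given in the sources used here, nor is the strand setting of the counting. The study's library kit was stranded. Whether the counting kept reads of genes on opposite strands apart where exons overlap is not known.

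Gene symbols and lengths came from GENCODE M21. Genes were kept by filterByExpr with a minimum count of 10, scaled by TMM and tested in R 4.3.3 with edgeR 4.0.16 (quasi-likelihood, 1 model of the 4 groups over all 11 libraries), with Benjamini-Hochberg adjustment over the 13303 genes tested and a threshold of 0.05. P-values are two-sided. Single-library CPM are shown without a prior count, and percentages are from the fitted log2 fold changes. Alternatives were DESeq2 1.42.0, RLE size factors, library totals, no low-count filter, a minimum count of 50, only the groups compared, replicate blocks, and leaving out each library. The steps were tested on simulated data. The members and gene lists were chosen with earlier results of these data known. Values in every library are given for genes past the threshold in a genotype comparison and for the 3 with the largest log2 fold change among those that passed in none. Total counts, about equal between libraries, limit low genes alone, and intervals of fold changes cover the spread between libraries. No source says that the libraries of a group share a batch or day. Sequences were taken from RefSeq tables (GRCm38.p6), and 6 genes had no window there. Values of 1 listed cargo gene are not reported here.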

Additional observations from a re-analysis of the deposited data

How the results depend on the processing

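The log2 fold change stayed negative in 34 to 37 genes on chow and 33 to 35 on the HFS diet under all alternatives run apart from library totals (21 and 22). Of the 38 genes 11 passed on chow and 5 on the HFS diet. With DESeq2 the counts were 17 and 16, with library totals 4 and 1, without a low-count filter 6 and 8, and with only the groups compared 2 and 8. RLE size factors (11 and 6) and a minimum count of 50 (12 and 5) stayed within 1.5 times. Leaving out 1 library at a time gave 0 to 8 calls on the HFS diet. On chow 3, 3 and 8 genes passed without fl/fl replicates 1, 2 and 3. Without LKO replicates 1 and 2, where the lone LKO library was assumed to vary like the other groups, 34 and 37 of 38 log2 fold changes were negative. On the HFS diet 0, 3 and 1 genes passed without fl/fl replicates 1, 2 and 3, and 8, 0 and 2 without LKO replicates 1, 2 and 3. With fewer libraries fewer degrees of freedom remain, and any other cause was not tested. Of the alternatives, the number or share of all genes passing is given here for DESeq2 and library totals alone. Library totals moved the median of the 38 genes from -0.36 to -0.0258 on chow and from -0.31 to -0.0514 on the HFS diet, and that of the interaction from 0.03 to -0.05. Of single genes, *Sec23b* and *Bet1* passed on chow in 11 of 13 alternatives each, *Copz1* in 9, *Tmed3* in 8, *Sec24d* and *Arcn1* in 5, *Tmed2*, *Tmed10*, *Surf4* and *Cope* in 4 and *Preb* in 3, and on the HFS diet *Preb* passed in 11 of 14, *Sec23b* in 10, *Cope* in 9 and *Lman2* and *Golgb1* in 7 each. *Sec24b*, which passed in no genotype comparison with TMM, rose on chow with library totals, as did 2685 of all genes tested. No other of the 38 genes passed as higher. In the diet and interaction comparisons the count of genes passing was 0 under each alternative run. Promoter matches fell from 6 to 3 genes for the UPRE core and from 17 to 11 for the hexamer when the bases after the start were left out. The longest transcript in place of merged exons altered the order of levels, as given in the report.

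With the replicate number as a block, 3 genes passed on chow and 4 on the HFS diet by the numbers in the titles, and 6 and 3 by those of the files, which differ for 1 chow LKO library. The numbers are not shown to pair the samples: the correlation of deviations was over 0.1 in 4 of 15 pairs under either numbering, with a range of -0.20 to 0.23 or 0.25. At 19191032 to 23888401 counts per library, depth limited *Kdelr3* alone of the 39 genes. Each chow library is 1 mouse and each HFS library 2 pooled mice, so that p-values compare unequal kinds of replicate between diets.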
